A study of Mus musculus with 10 samples.

Results

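The genes described here encode the protein components of the cytosolic ribosome. They were taken by name from the deposited expression table: names that begin with Rpl or Rps followed by a digit, with Rpsa, Rplp0, Rplp1 and Rplp2. The 21 rows named as pseudogene copies (-ps) and the 10 Rps6k rows, which are S6 kinase genes, were left out. The rule gave 88 of 34745 rows, 35 with small subunit names and 53 with large subunit names. It uses no measured value. One of the 88, Rps19bp1, encodes a protein that binds RPS19 and is not a ribosomal subunit. Genes of ribosomal proteins with other names, such as Fau, whose product is a ubiquitin-like protein fused to a small subunit protein, and Gnb2l1, the older symbol of RACK1, fall outside it.

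The series asked how amlexanox, a small anti-inflammatory kinase inhibitor, acts in sepsis. Polyadenylated RNA was sequenced from peritoneal lavage cells of mice that had undergone cecal ligation and puncture (CLP), an operation that lets gut bacteria into the abdomen. All 10 libraries came from such mice, 5 labelled NC (NC 1 to NC 5) and 5 labelled AX (AX 6 to AX 10). Neither name is spelled out in the labels; from the design text, AX was taken to mean amlexanox and NC vehicle. Strain, genotype, age, sex, dose and time after surgery are not stated in the labels, and uninjured mice were not analysed here. The labels do not say that each library is a separate animal. The p-values therefore describe the variation among these 10 libraries, and that variation could be technical.

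A ribosome has a small subunit, which reads the mRNA, and a large subunit, which joins amino acids and carries a stalk of acidic P proteins that recruits translation factors. Most ribosomal protein mRNAs begin with a run of pyrimidines, the 5′ terminal oligopyrimidine (TOP) motif, through which mTORC1 and LARP1 control their translation. Their short, abundant mRNAs have also been copied back into the genome many times, so mammals carry many processed pseudogenes nearly identical to them. Several members have duties outside the ribosome: RPL5 and RPL11 bind MDM2 and stabilise p53, RPL13A takes part in silencing inflammatory mRNAs in myeloid cells, and RPS3 associates with NF-κB.

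The smallest library, NC 1, held 10221170 counts and the largest, NC 2, held 13806885. Levels are given in CPM, the count scaled to a library total of 1000000. Leukocyte markers were present in every library, S100a8 at 1274 to 3670 CPM and Lyz2 at 261 to 1188 CPM. Ptprc, which encodes CD45, was at 19.4 CPM in AX 8 and at 341 to 1138 CPM elsewhere. The 15 mesothelial markers, those of the lining of the abdominal cavity, summed to 2461 to 8073 CPM in NC and 2314 to 11395.5 CPM in AX. AX 6 held the highest mesothelial sum, with NC 1 next. The 15 stromal markers summed to 376 to 1784 CPM in NC and 783 to 3228 CPM in AX, again highest in AX 6. None of the markers of either list was at 0 in all libraries. Mitochondrially encoded genes took 4.47% to 15.7% of counts in NC and 6.35% to 20.1% in AX.

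The share of all counts in the 88 genes was 1.86%, 1.79%, 1.37%, 1.40% and 1.96% in NC 1 to NC 5. It was 2.18%, 1.53%, 1.64%, 1.56% and 1.19% in AX 6 to AX 10. AX held both the highest library (AX 6) and the lowest (AX 10), and the groups overlapped. The means were 1.62 ± 0.356% in AX and 1.67 ± 0.273% in NC (SD, n = 5 libraries each). Small subunit names took 0.782 ± 0.171% in AX and 0.817 ± 0.128% in NC, and large subunit names took 0.839 ± 0.185% and 0.858 ± 0.146%. With mitochondrially encoded genes taken out of the total, the shares were 1.87 ± 0.391% in AX and 1.86 ± 0.340% in NC. In bulk samples such as these, fewer cells of a type and less RNA per cell cannot be told apart. AX 6, with the highest share, was also the library with the most mesothelial and stromal marker RNA, whose part in its share was not tested.

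**Figure D1:**
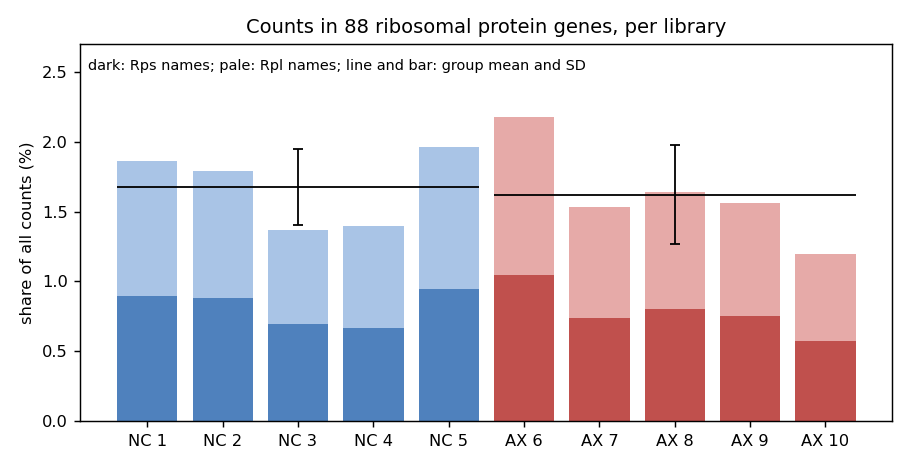
Bars give the percent of each library's counts that fell in the 88 ribosomal protein genes, split into small (dark) and large (pale) subunit names, for 5 NC libraries (blue) and 5 AX libraries (red); lines and error bars are the group mean and SD. The AX libraries run from 1.19% to 2.18% and enclose all 5 NC libraries, which run from 1.37% to 1.96%.

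Of the 88 genes, 85 had enough counts to be tested for a difference between AX and NC with edgeR's quasi-likelihood test. Rpl10l, a testis-associated copy of Rpl10, had no count in any library. Rpl39l, a paralog of Rpl39, reached at most 0.632 CPM, and Rpl3l, the muscle paralog of Rpl3, at most 1.74 CPM. None of the 85 passed an adjusted p of 0.05 (background over 12264 genes, 0%), and no gene outside the list did either. None had an unadjusted p under 0.05 with all libraries (background 0.921%, 113 genes), and 1 member, Rpl13, did so without AX 6, among 381 genes. DESeq2 and limma-voom, run as alternatives, also called no ribosomal protein gene. The smallest unadjusted p was 0.116, for Rpl5, with an adjusted p of 0.9999 by edgeR. No member had AX and NC libraries that did not overlap in CPM (background 0.0978%, 12 genes).

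The fitted differences were small. They ran from a log2 fold change of -0.26 for Rps26 to 0.44 for Rpl13, with a median of 0.066 against 0.021 over all genes tested. The median was 0.044 for the 35 small subunit names and 0.092 for the 50 large subunit names tested. The median standard error was 0.255 for the members and 0.317 over all genes. For 80 of 85 members (94.1%; background 58.9%) the 95% interval stayed within 1 log2 unit of 0, that is, within a doubling or a halving. That background covers all genes tested and was not matched to the level of the members. Among 3948 genes in the members' middle range of levels, the median SD of log2 CPM was 0.398, beside 0.385 for the members. The interval bounds of single members reached from -0.975 to 1.246.

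Fitted values were above 0 for 60 members (70.6%; background 53.6%) and below 0 for 25 (background 46.4%). This split depended on scaling and on single libraries. Scaled to library totals alone, 40 members lay above 0 and 45 below, beside 43.2% of all genes above 0. Without AX 6, 28 lay above 0 and 58 below, beside 47% of all genes above 0, and the members' median was -0.12. Without AX 10, 75 lay above 0 and 11 below, beside 50.3% of all genes above 0.

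**Figure D2:**
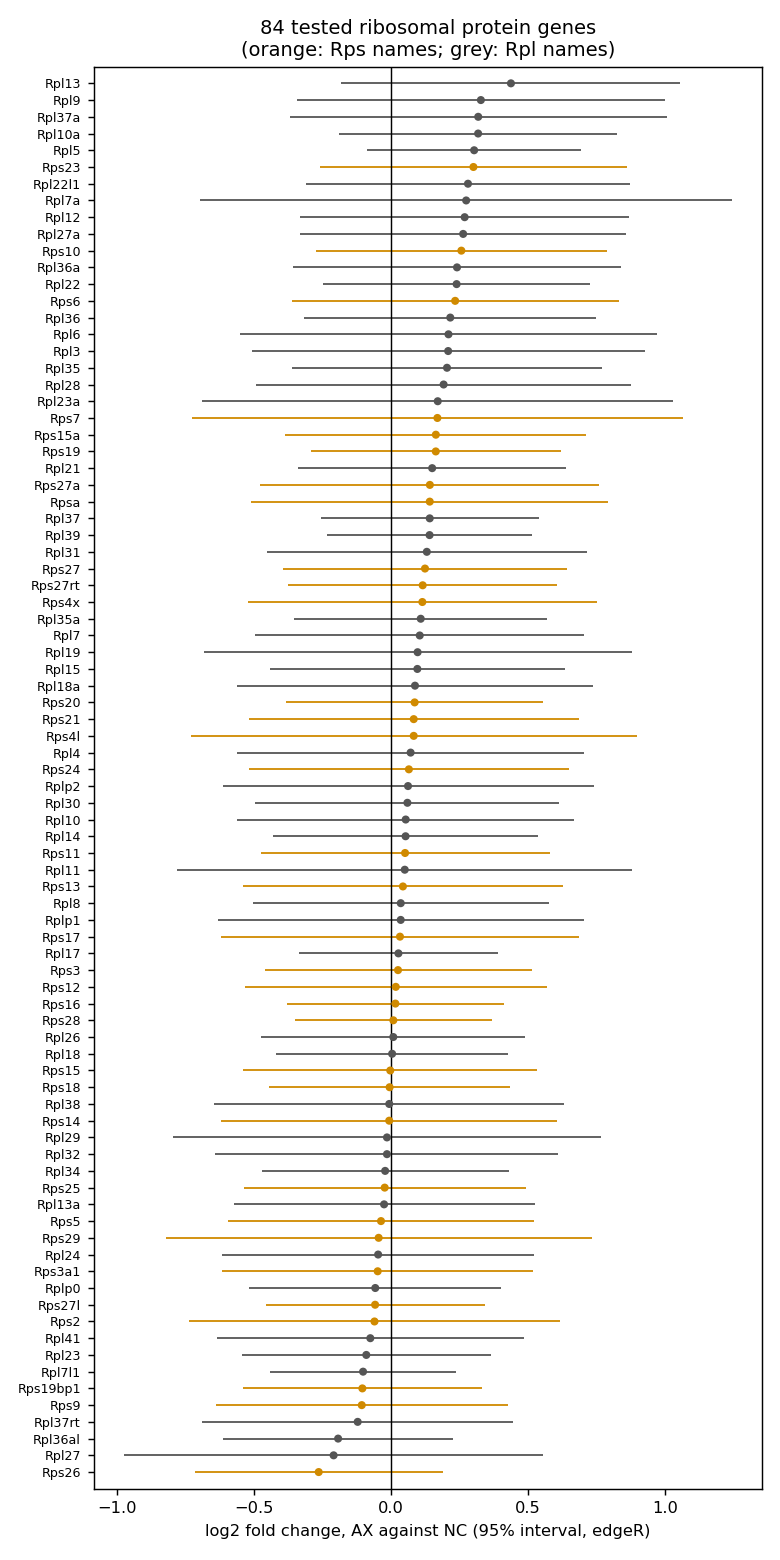
Points give the fitted log2 fold change of AX against NC for 84 of the 85 tested ribosomal protein genes, ordered by value, with 95% intervals from edgeR; orange marks Rps names and grey Rpl names. All 84 points lie between -0.26 and 0.44.

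Levels differed widely among members. Rps9 alone held 7.86% of all member counts and the 10 most abundant members held 46.3%. By mean CPM, 42 members were at 100 or more, 33 between 10 and 100, and 13 under 10, with a median of 82.3. Per length, on the authors' FPKM scale, the highest were Rpl8, Rplp1 and Rpl13a, at 1161, 951 and 811 FPKM on average. The lowest of those tested were Rps13, Rpl9 and Rpl23a, at 0.434, 0.533 and 1.13 FPKM. Per kilobase of the main mRNA, the order was another: Rps9 was highest at 1724 CPM, with Rplp2 and Rpl8 next at 1176.5 and 1176.3 CPM. The lowest of the 85 tested members on that scale were Rpl23a, Rps29 and Rps23, at 2.82, 3.72 and 4.08 CPM. All of these encode core subunits of which each ribosome has at least 1 copy, and the low values are taken up below with the copies of these genes.

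Among small subunit proteins, Rps9, an early-assembling protein of the small subunit body, was at 1074, 1339, 1448, 1172 and 1807 CPM in NC and at 1086, 1299.5, 1567, 1133 and 1022 CPM in AX. NC 5 was highest, AX 10 lowest, and the groups overlapped. Rpsa, which also serves as a laminin receptor, was at 805, 761, 522, 602 and 1020.0 CPM in NC and at 1211, 684, 835, 642 and 472 CPM in AX. Its highest and lowest libraries were both in AX (AX 6 and AX 10), 2.57-fold apart, and its means were 769 ± 279 and 742 ± 193 CPM in AX and NC. Rps3 stood at 740.1, 785, 513, 482 and 575 CPM in NC and at 875, 531, 502, 630.1 and 433 CPM in AX, with the same 2 extreme libraries. Rps4x, the X-linked form of RPS4, averaged 427 ± 195 CPM in AX and 419 ± 73.5 CPM in NC. Rps4l, its autosomal paralog, was far lower, at 10.5 ± 3.93 CPM and 10.6 ± 5.62 CPM.

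Rps6, whose protein is the substrate that gave the S6 kinases their name, was listed at only 9.49, 8.84, 4.66, 6.08 and 7.63 CPM in NC and 12.6, 7.41, 5.78, 8.38 and 6.50 CPM in AX. AX 6 was again highest, and NC 3 lowest. Rps19, the gene most often mutated in Diamond-Blackfan anaemia, averaged 166 ± 25.04 CPM in AX and 158 ± 45.2 CPM in NC, and Rps19bp1 21.99 ± 3.90 and 24.8 ± 5.45 CPM. Rps26, which lies at the mRNA exit channel, was at 159, 192, 112, 148 and 224 CPM in NC and 162, 153, 103, 132 and 115 CPM in AX. The NC and AX values overlapped between 112 and 162 CPM, and the fitted log2 difference was -0.26 ± 0.21 (SE; edgeR unadjusted p = 0.227, adjusted p = 0.9999). That value, the lowest of the members with TMM scaling and all libraries, was -0.10 without NC 5, and Rpl27 lay lower with limma-voom (-0.30 against -0.25) and without AX 6 (-0.59 against -0.38). Rps23, a protein of the decoding centre, was listed at 2.61 to 5.86 CPM in AX and 3.21 to 3.82 CPM in NC (log2 fold change 0.30 ± 0.26 SE). All 5 NC values of Rps23 lay inside the AX range.

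Rps27a encodes a fusion of ubiquitin and a small subunit protein. It was at 119, 126, 123, 80.2 and 166 CPM in NC and at 100.4, 105, 199.8, 111 and 123 CPM in AX. AX 8 stood above the other 4 AX libraries. Outside the name rule, Fau was likewise highest in AX 8, at 763 CPM against 366 to 394 CPM in the other 4.

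Of the large subunit, the stalk proteins were among the most abundant members. Rplp0, the base of the stalk, was at 787, 821, 544, 634 and 897 CPM in NC and 912, 653, 604, 666 and 524 CPM in AX. Rplp1 was at 583, 473, 341, 292 and 713 CPM in NC and 649, 337, 549.9, 427 and 344 CPM in AX. Its dimer partner Rplp2 was at 468, 418, 479, 401 and 725 CPM in NC and 364, 393, 790.0, 386 and 529.6 CPM in AX. Rplp2 was lowest in AX 6, where Rplp0 was highest, so the rows of the 3 stalk genes did not share an order of libraries. Rplp0 averaged 672 ± 145 CPM in AX and 737 ± 144 CPM in NC, and Rplp1 461 ± 135 and 481 ± 173 CPM. Rplp2 averaged 492 ± 179 and 498 ± 131 CPM. Rplp2 shares 65.05% of its 50-base stretches with Wdr89 (282 CPM), and Rplp0 27.3% with Gm8730 (281 CPM). The levels and the order of these rows are therefore uncertain.

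Rpl13a was at 911, 796, 679.6, 672 and 1240.1 CPM in NC and 949, 752, 969, 720.1 and 613 CPM in AX, with NC 5 highest and AX 10 lowest. Rpl5, which carries the 5S rRNA into the large subunit together with RPL11, had the smallest p of all members. It was at 54.6, 52.5, 35.7, 47.8 and 58.4 CPM in NC and at 61.5, 51.9, 56.3, 53.6 and 68.2 CPM in AX. The groups overlapped between 51.9 and 58.4 CPM, and NC 3 lay below every other library. The log2 fold change was 0.30 ± 0.18 (SE), with an unadjusted p of 0.116 by edgeR. The gene (ENSMUSG00000058558, chr5:107900502-107909005 of mm10) overlaps Fam69a on the opposite strand, which held 10.6 CPM. Rpl11 was listed at 7.73, 7.75, 5.67, 6.96 and 6.25 CPM in NC and 5.77, 8.84, 1.44, 10.6 and 8.45 CPM in AX. AX 8 was the low library, and Rpl11 was the only tested member at least 4-fold below its own median in any library.

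The largest fitted value belonged to Rpl13, at 28.1, 32.0, 21.8, 25.8 and 37.9 CPM in NC and 19.8, 33.4, 50.1, 33.6 and 50.3 CPM in AX. AX held both its lowest library (AX 6) and its 2 highest (AX 8 and AX 10), and its log2 fold change was 0.44 ± 0.28 (SE; edgeR unadjusted p = 0.147). Without AX 8 it was 0.25, and without AX 6 it was 0.59 with an unadjusted p of 0.0393 and an adjusted p of 0.9996 by edgeR. Rpl10a, which forms the mobile stalk beside the tRNA exit site, averaged 148 ± 54.6 CPM in AX and 124 ± 27.9 CPM in NC (0.32 ± 0.23, and 0.14 without AX 6). Rpl10, needed for the last steps of large subunit maturation, averaged 56.2 ± 23.2 and 57.0 ± 17.8 CPM. Among members fitted below 0, Rpl36al averaged 75.5 ± 12.98 and 89.2 ± 16.7 CPM in AX and NC (-0.19 ± 0.19), and Rpl27 averaged 13.5 ± 6.73 and 16.7 ± 6.36 CPM, with a fitted value of -0.21 that was -0.59 without AX 6 and -0.08 without AX 10.

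Paralogs of large and small subunit genes were present at unequal levels, compared here as CPM of each row and without correction for length. In AX and NC, Rpl7l1, a nucleolar relative of Rpl7, averaged 93.8 ± 17.7 and 105 ± 17.7 CPM, and Rpl7 472 ± 202 and 465 ± 59.1 CPM. Rpl22l1 stood at 62.8 ± 16.3 and 55.8 ± 17.0 CPM beside Rpl22 at 146 ± 29.0 and 129 ± 28.1 CPM. The row of Rpl36a held 17.3 ± 4.18 and 15.6 ± 5.09 CPM, less than the row of its retrocopy Rpl36al. Of the 50-base stretches of Rpl36a, 85.5% occur in other genes, so no order of expression was read for this pair. Rps27l, a p53-responsive paralog, stood at 37.5 ± 8.48 and 40.8 ± 7.69 CPM, and the row of Rps27 held 4.24 ± 0.982 and 4.07 ± 0.358 CPM. No order of these 2 was read, because Rps27rt, with the same coding sequence as Rps27, held 156 and 151 CPM. Rpl39 was at 27.7 ± 4.88 and 26.5 ± 4.71 CPM, and Rpl3 at 109 ± 52.0 and 102 ± 38.2 CPM. None of these genes passed the test between AX and NC.

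Across the 10 libraries most members varied by a moderate amount. The ratio of the highest to the lowest library had a median of 2.31, from 1.28 for Rpl17 to 7.34 for Rpl11. It was under 2 for 29 tested members, between 2 and 4 for 51, and 4 or more for 5. The SD of log2 CPM had a median of 0.385, beside 0.525 over all genes and 0.398 over the 3948 genes in the members' middle range of levels. The most variable members were Rpl11, Rpl7a, Rps7, Rps4l and Rpl23a. Rpl7a was at 83.2, 69.2, 33.1, 47.6 and 27.1 CPM in NC and 122, 50.8, 21.4, 68.9 and 30.8 CPM in AX. Rps7, another protein that binds MDM2, was at 112, 104, 48.7, 68.5 and 55.7 CPM in NC and 167, 73.7, 34.1, 96.4 and 38.4 CPM in AX. For both, AX 6 was highest and AX 8 lowest.

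The libraries with extreme values recurred. AX 6 held the highest CPM of 37 tested members (43.5%; background 17.3% of all genes), among them Rpsa, Rps3, Rps6, Rps7, Rpl3, Rpl4, Rpl7a and Rplp0. AX 10 held the lowest CPM of 30 (35.3%; background 13.8%). AX 8 held the lowest of 19 (22.4%; background 20.8%), a share near that of all genes. NC 5 held the highest of 17 (20%; background 9.47%), among them Rps9, Rps12, Rps15, Rps20, Rps21, Rps24, Rps26, Rps28, Rpl8, Rpl13a, Rpl38, Rpl41 and Rplp1. A further 9 members were highest in AX 10, the library that was most often the lowest, among them Rpl5, Rpl9, Rpl12, Rpl13, Rpl27a, Rpl36, Rpl37a and Rps10. The share of all genes highest in AX 10 was not counted, so this number was not read as particular to the members. The members did not share 1 order of libraries, and whether other genes did was not tested. Between AX 6 and AX 8, 61 members were higher in AX 6, 26 of them at least 2-fold, and 24 were higher in AX 8, 3 of them at least 2-fold. The same split was not counted over all genes, so nothing particular to the members was read from it. The ratio of AX 6 to AX 8 ran from 0.395 for Rpl13 to 5.69 for Rpl7a. AX 6 was the library with the highest mesothelial sum and AX 10 the one with the lowest. Not every library kept that order: NC 3 held a mesothelial sum of 5227 CPM and a ribosomal protein share of 1.37%. NC 5 held a sum of 3011 CPM and a share of 1.96%. The part of these cells in the pattern was not tested. These library counts were chosen after the values were seen.

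**Figure D3:**
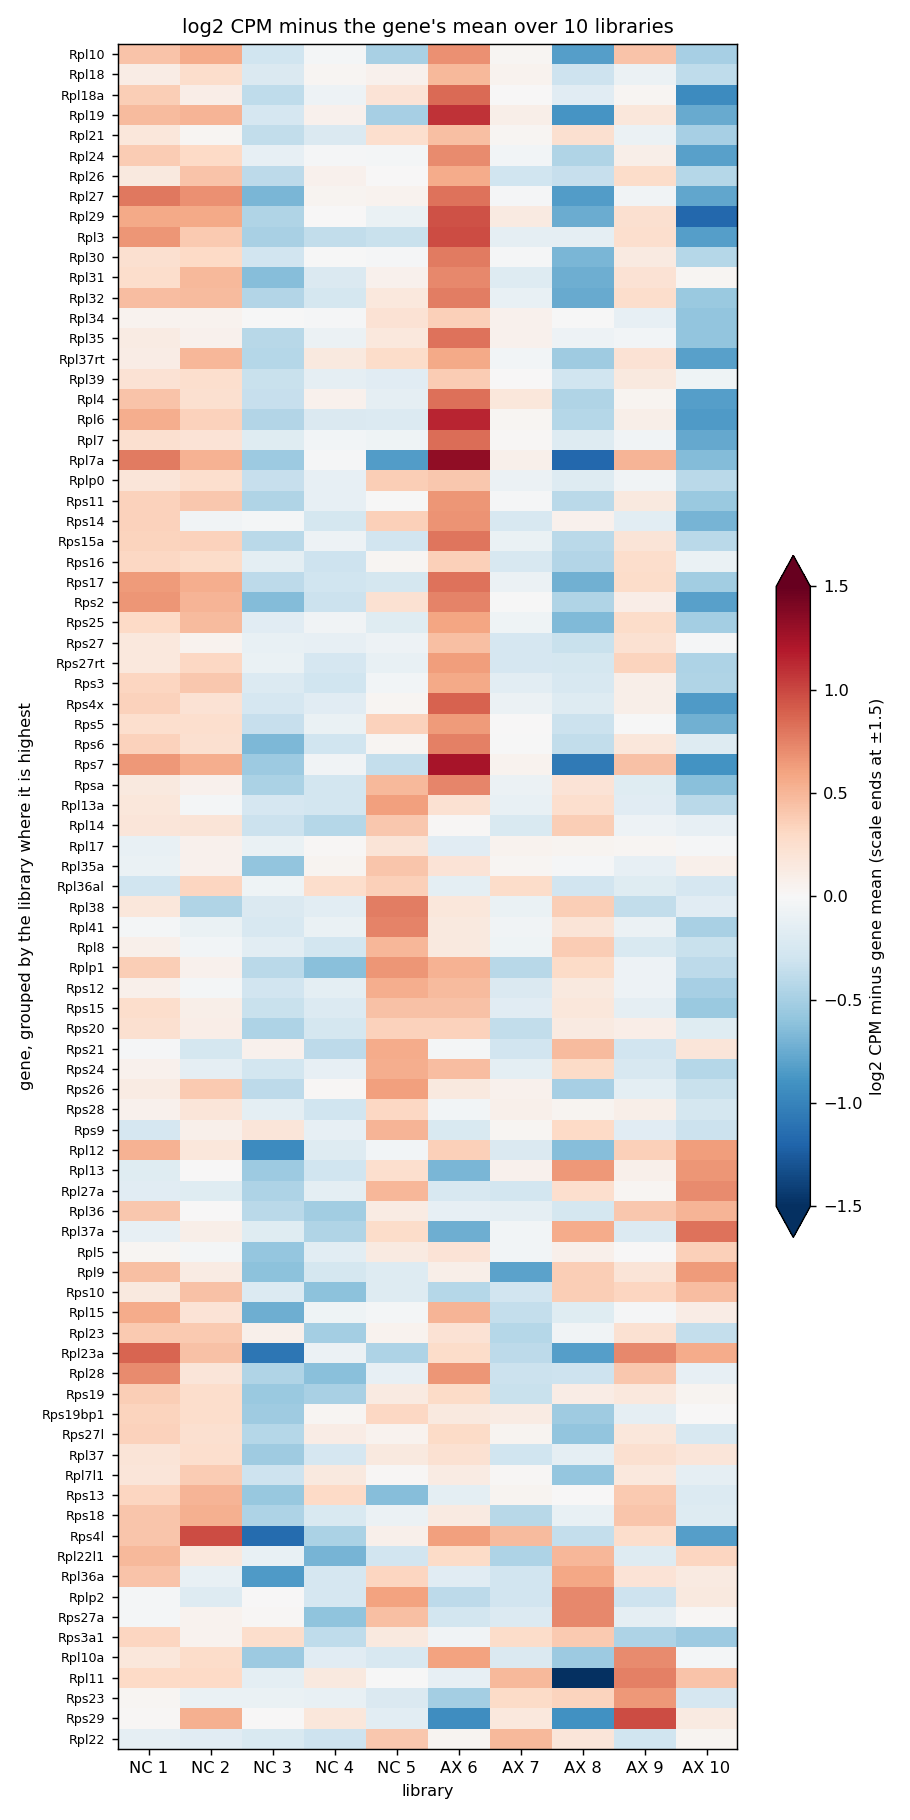
Each row is 1 of 84 tested ribosomal protein genes, each column a library, and the colour is the gene's log2 CPM minus its mean over the 10 libraries (red above, blue below, colours end at ±1.5). Rows are grouped by the library that holds the gene's highest value: the upper 37 rows are red in AX 6, 17 rows peak in NC 5, and 8 rows peak in AX 10.

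Many members share long stretches of sequence with other annotated genes, and the table holds some of those copies as rows of their own. Of each member's mRNA in GENCODE M21, a median of 58.7% of 50-base stretches, and 43.2% of 100-base stretches, also occur in a transcript of another gene. These percents count either strand and include genes that overlap the member at its own place, so they are not a measure of copies alone. Rpl13a, at 57.4%, had 0 genes elsewhere that share at least 20% of its 50-base stretches. For 26 members the table has rows named as copies (Gm or -ps) that share at least 20% of the 50-base stretches, 37 rows in all. The copies held more counts than the gene for 9 of the 26. The following coding stretches, chosen after the levels were seen, show how close gene and copy are. Capitals mark the bases that differ between the members of a pair. They were read from GENCODE M21 transcripts, the build of the files, and each is 90 bases of coding sequence.
Rpl23a (chr11:78180932-78183584, minus strand): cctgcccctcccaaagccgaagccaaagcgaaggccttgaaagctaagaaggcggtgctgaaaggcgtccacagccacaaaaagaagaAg
Rpl23a-ps3 (chr14:34170655-34171168, plus strand): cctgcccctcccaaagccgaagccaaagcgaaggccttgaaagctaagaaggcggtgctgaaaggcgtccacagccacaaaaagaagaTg
Rpl9 (chr5:65388364-65391444, minus strand): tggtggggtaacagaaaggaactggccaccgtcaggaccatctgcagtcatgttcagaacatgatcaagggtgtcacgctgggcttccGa
Rpl9-ps6 (chr19:32465885-32466575, minus strand): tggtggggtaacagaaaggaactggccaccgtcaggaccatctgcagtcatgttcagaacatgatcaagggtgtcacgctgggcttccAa
Rps7 (chr12:28630847-28635953, minus strand): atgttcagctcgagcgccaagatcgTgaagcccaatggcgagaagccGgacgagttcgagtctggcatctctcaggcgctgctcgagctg
Gm6472 (chrX:152909505-152910155, minus strand): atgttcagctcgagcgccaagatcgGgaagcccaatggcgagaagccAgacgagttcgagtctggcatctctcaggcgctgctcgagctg
Rpl5 and Gm15500 (chr7:114705217-114706235, minus strand), identical here: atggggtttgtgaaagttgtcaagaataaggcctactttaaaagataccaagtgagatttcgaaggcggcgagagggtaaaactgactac

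Over the whole coding sequence, Rpl23a and Rpl23a-ps3 differ at 1 of 468 bases, Rpl9 and Rpl9-ps6 at 1 of 576, and Rps7 and Gm6472 at 3 of 582. Rpl5 and Gm15500, Rpl12 and Gm10275, and Rps27 and Rps27rt are identical there. The rows differed far more in counts than in sequence. Rpl23a, listed at 1.58 CPM over the 10 libraries, faced 114 CPM in Rpl23a-ps3, 72.1 times as much. Rpl9 was at 5.83 CPM and Rpl9-ps6 at 209 CPM. Rpl11 was at 6.95 CPM and its copy Gm10036 at 133 CPM, Rpl12 at 24.1 CPM and Gm10275 at 346 CPM, and Rpl27 at 15.1 CPM and Rpl27-ps3 at 191 CPM. Rpl5 was at 54.0 CPM beside 436 CPM in Gm15500. For Rps7 and Rpl35 the copies held 3.97 and 1.24 times the counts of the gene. Rps27 was at 4.24 and 4.07 CPM in AX and NC, beside 156 and 151 CPM in Rps27rt, itself a member by name. How reads that fit several places were counted is not stated in the sources, so the level of such a row is uncertain for gene and copy alike. Low levels were not limited to genes with copy rows: Rps6, Rps13 and Rps29 had none in the table. Yet 84.6%, 83.0% and 35.8% of their 50-base stretches occur in other annotated genes. These include 6, 5 and 1 processed pseudogenes that share at least 20% of the stretches and have no row in the table. The part of such copies in these low levels was not tested.

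**Figure D4:**
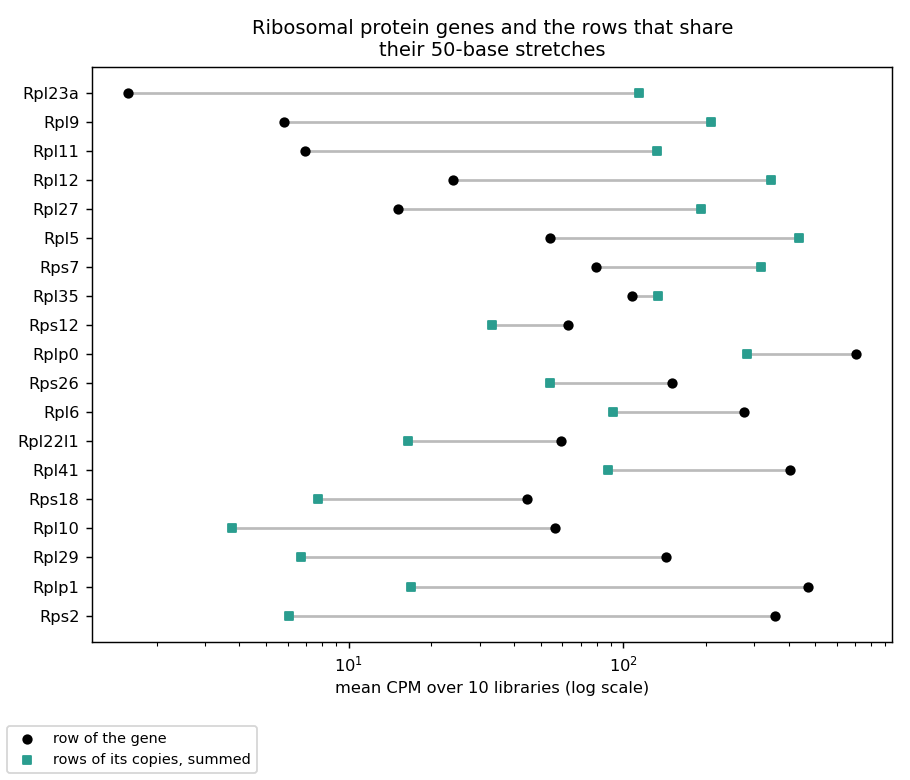
For 19 members whose copy rows sum to at least 1 CPM, circles give the mean CPM of the gene's own row over the 10 libraries and squares the summed mean CPM of its copies, on a log axis. In the upper 8 genes, from Rpl35 to Rpl23a, the square lies to the right of the circle.

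For the 9 genes whose copies held more counts, gene and copy often peaked in different libraries. Of their 10 copy rows, 9 were highest in AX 6 and 7 were lowest in AX 10. Of the 9 genes, 3 were highest in AX 6 and 4 in AX 10, among them Rpl5, Rpl9 and Rpl12. Gm15500 was at 609.5, 486, 305, 356 and 348 CPM in NC and 797, 400.2, 350.4, 458 and 252 CPM in AX, so its lowest library, AX 10, was the highest for Rpl5. Gm10275 was at 405, 423, 223, 311 and 381 CPM in NC and 536, 328, 259, 380.4 and 209 CPM in AX, again lowest in AX 10, where Rpl12 was highest. With the counts of the copies added to their gene, the log2 fold change went from 0.30 to 0.21 for Rpl5, from 0.33 to 0.11 for Rpl9, from 0.27 to 0.07 for Rpl12 and from -0.21 to -0.06 for Rpl27. No member passed the test in that form either. The cause of the unlike order of libraries was not tested.

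**Figure D5:**
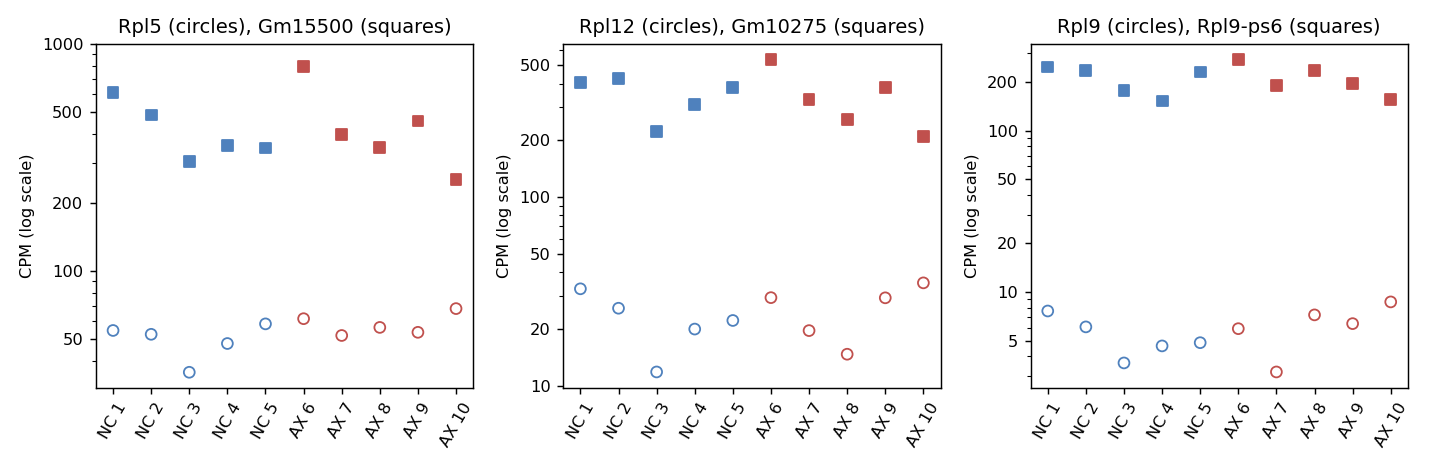
Each panel gives, on a log axis, the CPM of a gene (open circles) and of its copy (filled squares) in 5 NC libraries (blue) and 5 AX libraries (red). The squares peak in AX 6 in all 3 panels, while the circles are highest in AX 10.

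The level of a row was also set beside the share of its sequence found in other genes, with overlapping genes included. Per kilobase of mRNA, the median level was 75.9 CPM for the 15 members with under 25% of their 50-base stretches in other genes, 206 CPM for the 44 between 25% and 75%, and 70.8 CPM for the 29 above 75%. Across the 88 genes, which are not independent replicates, Spearman's rho between this level and the shared percent was -0.14, a weak relation from which nothing was read. The bins were chosen after the values were seen. The annotation adds a further uncertainty: 14 members overlap another row of at least 1 CPM, 1 of them (Rpl24) on the same strand and the rest on the opposite strand, and the labels do not state whether counting used strand.

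The authors' FPKM scale uses a length that differs from the mRNA. For 51 of 87 members it equals, within 0.1%, the sum of all distinct annotated exons with overlapping exons counted repeatedly, as for 71.8% of 19613 genes compared. This length was a median of 3.32 times that of the main mRNA, from 0.521 to 18.5 times. FPKM therefore ranks the members differently from CPM per kilobase of mRNA, with a Spearman's rho of 0.885 between the scales. The lengths do not enter the edgeR fit of AX against NC, and they enter only the alternative fit on log2(FPKM + 1).

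The sequence around the start of the mRNA was also searched. RefSeq start sites on GRCm38.p6 were matched for 67 members, and the 20 bases on each side were searched on the sense strand for a run of at least 8 pyrimidines (C or T) that begins with C. Such a run was present at 30 of the 67 (44.8%), beside 3909 of 27025 genes (14.5%). A match describes these letters only. The window reaches upstream of the start, so a run need not lie in the mRNA or at its 5′ end. The motif acts on translation, which was not measured here. The windows below are of members with values above; capitals mark the longest run, which in Rpsa and Rps3 is under 8.
Rps6 (chr4:86857348-86857387, minus strand): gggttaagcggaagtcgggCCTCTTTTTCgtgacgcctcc
Rplp2 (chr7:141447631-141447670, plus strand): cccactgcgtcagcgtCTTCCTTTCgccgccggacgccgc
Rpl13a (chr7:45128726-45128765, minus strand): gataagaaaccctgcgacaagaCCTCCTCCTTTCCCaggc
Rpl7a (chr2:26910787-26910826, plus strand): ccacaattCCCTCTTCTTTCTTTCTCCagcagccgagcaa
Rps27 (chr3:90213629-90213668, minus strand): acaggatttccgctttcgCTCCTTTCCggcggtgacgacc
Rpsa (chr9:120127746-120127785, plus strand): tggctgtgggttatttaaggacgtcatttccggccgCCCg
Rps3 (chr7:99483690-99483729, minus strand): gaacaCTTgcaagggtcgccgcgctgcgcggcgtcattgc

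Genes that work with the ribosomal proteins were compared in the same fit, and none passed an adjusted p of 0.05 by edgeR in any of the lists. The counts of fitted values below stand beside 53.6% of all genes above 0 and 46.4% below. Of 8 genes on the elongation factor list, 7 were fitted above 0 (median log2 fold change 0.12). Tpt1, which is not itself an elongation factor, stands on this list and on that of other TOP mRNAs. Eef1a1, which delivers aminoacyl-tRNA, averaged 3071 ± 1280 CPM in the AX libraries and 2846 ± 770 CPM in the NC libraries. Of 29 other mRNAs with a TOP motif, 23 were above 0 (median 0.15). The smallest p among them was that of Tpt1, at 137 ± 42.2 and 103 ± 23.6 CPM (0.50 ± 0.23 SE, unadjusted p = 0.049, adjusted p = 0.9999). Of 27 initiation factors 18 were above 0 (median 0.06), and of 29 genes of mTORC1 signalling and ribosomal protein control 20 were (median 0.05). Of 50 ribosome biogenesis genes 42 were above 0 (median 0.13); Taf1c, a subunit of the RNA polymerase I factor SL1, went the other way at 5.25 ± 3.52 and 9.68 ± 2.76 CPM. Of 13 ribosome quality control genes 10 were above 0 (median 0.09).

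Most of these splits turned without AX 6, as did that of the members, while 47.0% of all genes were then above 0. Without AX 6, 4 biogenesis genes lay above 0 and 46 below (median -0.19). The other TOP mRNAs then split 7 to 22 and the initiation factors 6 to 21. The elongation factor list split 1 to 7, and the quality control genes 3 to 10. The mTORC1 and control genes kept more values above 0, at 16 to 13. Scaled to library totals, where 43.2% of all genes were above 0, the initiation factors lay above 0 for 10 and below for 17, and the mTORC1 and control genes for 11 and 18, while the biogenesis genes split 33 to 17.

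Mitochondrial ribosomal protein genes, a separate set that serves the ribosomes inside mitochondria, had 57 of 77 fitted below 0 (median -0.10), 63 without AX 6 and 69 with library totals only. For the cytosolic genes the corresponding counts below 0 were 25 of 85, 58 of 86 and 45 of 85. Summed over the set, the AX libraries held 1684 ± 123 CPM and the NC libraries 1886 ± 261 CPM. Mrpl52 had the smallest p of that set, at 69.4 ± 15.8 and 92.0 ± 12.8 CPM (-0.38 ± 0.18 SE). AX 6 was the highest library for Eef1a1 (5212 CPM), Npm1 (761 CPM), Ncl (1118 CPM) and Gnb2l1 (771 CPM), as for 37 of the cytosolic members. All 13 tested mesothelial markers were fitted above 0 (median 1.04), and so were all 15 stromal markers (median 0.55). Without AX 6, 2 mesothelial and 9 stromal markers were. The 8 leukocyte identity genes had 9 rows, as Itgam has 2, and 7 of these rows lay below 0 (median -0.29). Below 0 were also 14 of 20 neutrophil, 11 of 16 B cell and 11 of 18 T and NK cell markers. Macrophage markers split 9 to 9. Without AX 6 the numbers below 0 were 6 identity rows and 11 neutrophil, 9 B cell, 8 T and NK cell and 6 macrophage genes. The part of these cells in the values of the ribosomal protein genes was not tested.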

How the data were processed

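Per the submitters' processing notes, the authors used HISAT2 2.0.4 and build mm10. For the counting tool, annotation release and strand setting, the entry is: not given in the sources used here. Raw counts per gene, as deposited, are whole numbers, and the FPKM values deposited by the authors scale them by gene length and library total. Members, gene lists and the rule for named genes were chosen with earlier results of these data known.

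CPM is the count divided by the library total. AX (5 libraries) was compared with NC (5) by edgeR 4.0.16 in R 4.3.3: filterByExpr by group, TMM scaling, the two-sided quasi-likelihood F test and Benjamini-Hochberg adjustment over 12264 genes, threshold 0.05, checked on simulated data. Standard errors (SE) follow from each log2 fold change and the square root of F. All pairs of libraries differed beyond sampling noise (41.8 to 327 chi-square units for each degree of freedom), and all were kept. Total counts did not differ detectably between groups (exact two-sided permutation test, p = 0.587). Python 3.11.15, scipy 1.17.1, pandas 2.3.3 and matplotlib 3.10.9 were used for summaries and plots.

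Named by rule were Rpsa, the P proteins, Rps6, Rps27a, Rpl5, Rpl11, Rpl13a, Rps3, Rps19, Rpl10 and paralog pairs, the 5 smallest p in each direction, the 5 largest SD of log2 CPM, the 3 highest and lowest by FPKM, members 4-fold below their median in a library, and up to 3 genes per list. Others named were chosen after their values were seen.

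Main mRNAs were protein-coding transcripts of GENCODE M21 with the best APPRIS rank and a CCDS entry, the shortest if several; this choice was made after levels per length were seen. Start windows come from RefSeq (GRCm38.p6). Alternatives were DESeq2 1.42.0, voom in limma 3.58.1, limma on log2(FPKM + 1), other scalings and filters, each library left out, and, added after seeing the data, copies summed with their gene. A few genes and the values that need them are not reported here; they stay in all counts, medians and fits.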

Additional observations from a re-analysis of the deposited data

Results flagged for a closer look

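Among 76 groups of 5 libraries checked for a value that stands apart (38 named genes and shares in each group), 4 did, and chance flags about 1 in 20 groups. Rpl22 was at 178.5 CPM in NC 5, above the other 4 NC libraries at 109 to 122.8 CPM. Rplp2 was at 725.1 CPM in NC 5, above the other 4 NC libraries at 400.8 to 478.7 CPM. Rpl36al was at 98.29 CPM in AX 7, above the other 4 AX libraries at 66.51 to 73.07 CPM. Rps27a was at 199.8 CPM in AX 8, above the other 4 AX libraries at 100.4 to 123.1 CPM.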

How the results depend on the processing

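No ribosomal protein gene passed the threshold under any of the 21 alternatives. No direction of the 10 single members followed through them was reversed. These 10 were picked from the main fit, as the 5 smallest p in each direction. Steady signs are favoured by that choice, and nothing was read from them. The count of all genes past the threshold stayed at 0 under the 11 alternatives that keep all libraries, and ran from 0 to 1 when each library was left out; the 1 gene, without NC 3, was Rnf24, a ring finger gene that is no member and was named after its values were seen (log2 fold change -5.75, adjusted p = 0.0174 by edgeR). Genes with an unadjusted p under 0.05 numbered 79 to 433 over the alternatives; among members there was 1, Rpl13 without AX 6. The members' median log2 fold change ran from -0.04 to 0.07 over the 11 alternatives and from -0.12 to 0.13 with each library left out. It was below 0 with library totals only (-0.01), on log2(FPKM + 1) (-0.04, with 33 members above 0 and 50 below) and without AX 6 (-0.12). The median over all genes in these fits was also below 0, at -0.04, -0.06 and -0.02 in that order. On log2(FPKM + 1), 36.4% of all genes were above 0. With limma-voom 45 members were above 0 and 40 below, beside 49.5% of all genes above 0. Leaving out each library moved the share of counts between 1.48% and 1.73% in AX and between 1.60% and 1.75% in NC. With the copies counted in, an alternative added after seeing the data, the share was 1.95% in NC and 1.89% in AX. Rps23 has no value under the filter of 50 counts in 5 libraries. No paired analysis was possible because the NC libraries are numbered 1 to 5 and the AX libraries 6 to 10, so the groups share no number.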
